A study of Mus musculus with 8 samples.

Results

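The 10 transcription regulators of lipogenesis were Srebf1, Insig2, Mid1ip1, Usf1, Mlxipl, Mlx, Nr1h3, Nr1h2, Pparg and Ppargc1b. They were chosen by name for their known roles and make up 10 of the 21532 genes measured in liver RNA. All 10 were tested. The liver RNA came from 8 male db/db mice on a C57BL/6J background. These mice lack a working leptin receptor, overeat and become obese and diabetic, and both groups carried this mutation. From 8 weeks of age, 4 mice received control and 4 mice received AF1 peptide, a synthetic peptide taken from estrogen receptor α (ERα) and joined to a TAT sequence that carries it into cells. Each injection held 5 mg per kg of body weight and was repeated 2 times a week over 5 weeks, and the mice were fed standard chow. What the control injection held is not described beyond its name, and a group without injection or without the db/db mutation was not used here.

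Lipogenesis is the building of fatty acids and triglycerides from sugar, and in the liver it is set largely by transcription. Insulin acts through SREBP-1c, a membrane-bound factor encoded by Srebf1 that must be carried from the endoplasmic reticulum to the Golgi and cut before its free end can enter the nucleus. Glucose acts through ChREBP, encoded by Mlxipl, which binds DNA only together with its partner Mlx. Oxysterols act through the liver X receptors, LXRα (Nr1h3) and LXRβ (Nr1h2), which switch on Srebf1 itself, and PPARγ (Pparg) is known for driving fat storage genes in fatty livers. Insig2 and Mid1ip1 are not DNA-binding factors. Insig2 holds the SREBP carrier in the endoplasmic reticulum, and Mid1ip1 binds and activates acetyl-CoA carboxylase.

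Of these genes, Insig2 and Mlx were lower in AF1 peptide-treated mice at the unadjusted threshold of limma but not in an exact permutation test, and Nr1h3 was higher in all 4 treated mice than in any control mouse without passing limma. The other 7 genes passed neither test. The deposited value of a gene in a mouse was a normalized count, a number of reads divided by 1 size factor for that mouse. Fold changes are differences of the group means of log2(normalized count + 1), AF1 peptide minus control, tested with limma at the unadjusted p value of 0.05. Adjusted p values (Benjamini-Hochberg) are over all 15989 genes tested, and standard errors and 95% intervals are those of limma. For each regulator, a two-sided exact permutation test of the same means is given beside the fit, and with 4 mice against 4 its smallest possible p value is 0.0286. A gene is called higher or lower where limma's unadjusted p value was under 0.05. A per-gene table adds up the transcripts of a gene, so SREBP-1a and SREBP-1c, the α and β forms of ChREBP, and PPARγ1 and PPARγ2 could not be told apart. In whole liver, fewer cells of a type and less RNA per cell cannot be told apart either.

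Depth was 35260283 to 45117528 reads per control mouse and 23031880 to 43978158 reads per treated mouse. The lowest number of reads of a regulator in a mouse was 77, for Ppargc1b, and the highest was 27783, for Mlxipl. AF1 peptide replicate 1 stood apart from the other 7 mice. On the first principal component, which held 39.3% of the variance, it lay at -74.2 and the others lay between -2.33 and 21.8. Its share of mitochondrial reads, 20.8%, was the lowest of the 8 mice, against 22.4 to 34.3% in control mice and 34.3 to 37.8% in the other treated mice. Values without this mouse are therefore given beside the results that it moved. Over all genes tested, 506 (3.16%) were higher and 484 (3.03%) were lower at the unadjusted threshold, 990 (6.19%) in all, and limma's adjusted p value was under 0.05 for none of them, the smallest being 0.763. edgeR on the recovered reads also gave 0 genes at that adjusted p value, with 1036 genes at an unadjusted p value under 0.05, and DESeq2 gave 3 genes, with 1008 unadjusted. Scaling every mouse to the same total changed the split of the unadjusted calls to 129 higher and 769 lower. Without AF1 peptide replicate 1 it was 732 higher and 876 lower, the background for counts without that mouse.

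The promoters of some regulators hold the binding letters of others, and 4 windows are printed to show those letters. RefSeq (GRCm38.p6) gave 18 windows of 300 bases, from 250 bases before to 50 bases after a transcription start, for 9 of the 10 genes, and Ppargc1b had no entry. The reads had been aligned to another build, mm39, so the coordinates below belong to GRCm38.p6 alone. Capitals mark the motif found. In the windows of Srebf1, 3 in number, the innermost start carried an LXR-type repeat, that is, a pair of GGTNA words 5 bases apart, on the minus strand of the window and beginning 182 bases before the start. The inner start of Mlxipl carried a sterol regulatory element (TCACNCCAC), the word that SREBPs bind, 136 bases before the start. The other start of Mlxipl and the single start of Mlx each carried an E-box (CACGTG), the word bound by USF1 and close to the words that ChREBP and Mlx bind, 98 and 40 bases before the start.
Srebf1, chr11:60210422-60210721, minus strand: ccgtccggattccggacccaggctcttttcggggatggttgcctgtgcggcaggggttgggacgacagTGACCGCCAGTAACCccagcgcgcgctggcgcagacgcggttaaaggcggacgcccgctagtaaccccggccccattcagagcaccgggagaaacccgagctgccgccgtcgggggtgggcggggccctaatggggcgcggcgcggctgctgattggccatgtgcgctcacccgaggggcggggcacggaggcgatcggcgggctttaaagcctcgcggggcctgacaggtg
Mlxipl, inner start, chr5:135106641-135106940, plus strand: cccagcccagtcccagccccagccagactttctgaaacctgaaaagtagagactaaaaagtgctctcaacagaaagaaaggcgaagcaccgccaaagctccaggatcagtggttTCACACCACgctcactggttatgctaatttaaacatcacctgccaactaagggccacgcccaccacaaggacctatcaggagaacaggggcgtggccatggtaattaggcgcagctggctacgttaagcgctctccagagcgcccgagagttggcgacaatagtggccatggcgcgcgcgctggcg
Mlxipl, outer start, chr5:135089640-135089939, plus strand: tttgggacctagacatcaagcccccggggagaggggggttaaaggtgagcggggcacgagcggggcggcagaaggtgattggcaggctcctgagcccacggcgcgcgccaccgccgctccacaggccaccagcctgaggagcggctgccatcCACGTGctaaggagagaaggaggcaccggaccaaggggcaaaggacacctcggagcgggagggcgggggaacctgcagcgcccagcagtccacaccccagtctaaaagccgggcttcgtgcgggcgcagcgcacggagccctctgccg
Mlx, chr11:101087040-101087339, plus strand: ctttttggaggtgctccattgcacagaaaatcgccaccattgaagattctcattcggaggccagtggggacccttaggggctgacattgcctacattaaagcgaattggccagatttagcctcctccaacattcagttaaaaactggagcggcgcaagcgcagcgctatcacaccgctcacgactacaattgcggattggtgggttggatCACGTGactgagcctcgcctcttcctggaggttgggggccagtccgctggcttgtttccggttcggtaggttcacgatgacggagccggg

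The LXR-type repeat was the only one among the 18 windows, and 0.718% of all 32851 promoter windows of the same length held one on either strand. The sterol regulatory element was found in 1 window of the regulators and in 1.24% of all windows. The E-box, which reads the same on both strands, was found in 2 of the 18 windows and in 7.15% of all. A PPAR-type repeat (GGTCA, any base, A, GGTCA) was in none of the 18 and in 0.0761% of all windows. The motifs do not overlap each other in these windows. Such matches describe letters, and binding was not measured here.

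Per kilobase of exon, ChREBP was the most abundant of the regulators in control livers. Mlxipl stood at 3134 ± 379 normalized counts per kilobase (SD, n = 4), above the next gene, Insig2, at 1249 ± 267, with no overlap between mice. Insig2, Srebf1 (1243 ± 254) and Nr1h3 (953 ± 31.3) followed closely, and neighbours in this order overlapped between mice. Nr1h3 lay above Nr1h2 (552 ± 51.1) in every control mouse, so LXRα messenger RNA exceeded that of LXRβ on this scale. Nr1h2 overlapped with Mid1ip1 (402 ± 110), and Mid1ip1 overlapped with Usf1 (299 ± 41.3). The rest of the order was separated without overlap, Usf1 above Pparg (227 ± 24.5), Pparg above Mlx (104 ± 14.9), and Mlx above Ppargc1b (35.1 ± 4.54). The mRNA of Mlx was thus low beside that of the factor it pairs with. Exon lengths are unions over the transcripts of GENCODE M21, so genes with long untranslated or rarely used exons appear lower than they are.

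**Figure D1:**
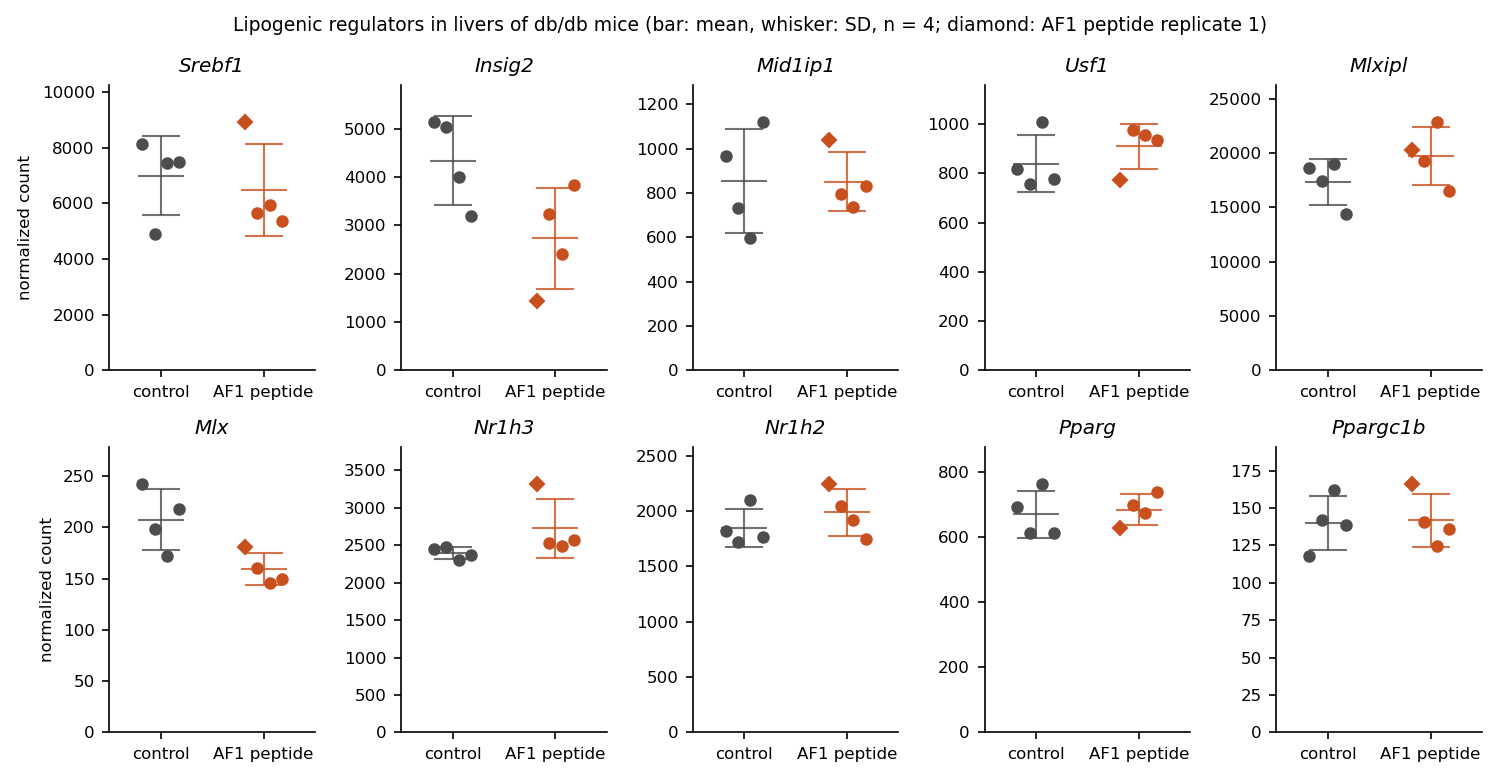
Normalized counts of the 10 regulators (vertical axes, each from 0) in control and AF1 peptide-treated mice. Points are mice, bars are means, whiskers are SD (n = 4 per group), and the diamond is AF1 peptide replicate 1; the treated mice lie low for Insig2 and Mlx and just above the control mice for Nr1h3.

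Of the SREBP branch, Srebf1 itself did not differ beyond its spread. Its normalized counts were 8144, 4910, 7464 and 7484 in control replicates 1 to 4, and 8938, 5673, 5926 and 5354 in treated replicates 1 to 4. The groups overlapped, since the highest of all mice was AF1 peptide replicate 1 and the lowest was control replicate 2. The means were 7001 ± 1429 and 6473 ± 1660 (SD, n = 4 per group). The log2 fold change was -0.12 (95% interval -0.56 to 0.32, exact permutation p = 0.6, limma adjusted p = 0.912). Without AF1 peptide replicate 1, the other 3 treated mice lay below 3 of the 4 control mice, and the log2 fold change was -0.28 (95% interval -0.63 to 0.06). It lay between -0.28 and -0.037 with each mouse left out in turn and at -0.21 with equal library totals. The interval of all 8 mice leaves room for a change in either direction.

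Insig2, which keeps the SREBP carrier SCAP in the endoplasmic reticulum and whose liver transcript is known to be repressed by insulin, had the largest difference of the 10 genes. It was read at 5141, 5034, 3991 and 3189 normalized counts in the control mice and at 1435, 3242, 2401 and 3823 in the treated mice. All 4 treated mice lay below the control median, and 2 of them (replicates 1 and 3) lay below every control mouse, but the groups overlapped. The mean fell by 37.2%, from 4339 ± 926 to 2725 ± 1039 (SD, n = 4 per group). The log2 fold change was -0.74 with a standard error of 0.28 (95% interval -1.35 to -0.12, limma adjusted p = 0.763), past the unadjusted threshold, and the exact permutation test gave p = 0.0857. It was -0.46 without AF1 peptide replicate 1 (95% interval -0.87 to -0.05), still past the unadjusted threshold. The call was lost without control replicate 1 and without control replicate 2, each of which left 7 mice. Among treated mice Insig2 was the most variable regulator, with a coefficient of variation of 38.1%, and in control mice its 21.3% was second to the 27.4% of Mid1ip1. Its paralog Insig1, which has the same retaining role and is itself an SREBP target, stood at 5851 ± 893 and 5627 ± 600 normalized counts (log2 fold change -0.05, limma adjusted p = 0.953).

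Mid1ip1, the acetyl-CoA carboxylase partner, had 967, 733, 599 and 1121 normalized counts in control mice and 1040.5, 795, 735 and 829 in treated mice, and the treated mice lay inside the control range. Its log2 fold change was 0.02 (95% interval -0.40 to 0.44, exact permutation p = 0.914) and -0.071 with equal library totals. Usf1, a factor that binds E-boxes of the fatty acid synthase promoter, had means of 839.8 ± 116 and 909 ± 92.1. It lay at 935 to 975 normalized counts in treated replicates 2 to 4 and at 774 in replicate 1, inside the control range of 757 to 1009.6, and the log2 fold change was 0.12 (95% interval -0.15 to 0.39, exact permutation p = 0.457). It was 0.19 without AF1 peptide replicate 1 and 0.027 with equal library totals. Of the 50-base words of Usf1 transcripts, 17.2% also occur in Tstd1 and Gm12345, and Tstd1 lies over Usf1 on the same strand, so that the value of Usf1 is uncertain.

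In the ChREBP branch, Mlx was called lower in limma and Mlxipl was not called. The ratio of Mlx to Mlxipl, given at the end, did not pass the threshold. Mlx had 242.3, 197.9, 171.9 and 217.7 normalized counts in control mice and 181.0, 160.7, 145.8 and 149.7 in treated mice. The 3 treated replicates 2 to 4 lay below every control mouse, and replicate 1 lay just above the lowest control mouse. The mean fell by 23.2%, from 207 ± 29.9 to 159 ± 15.8 (SD, n = 4 per group), with a log2 fold change of -0.37 and a standard error of 0.14 (95% interval -0.68 to -0.06, limma adjusted p = 0.763). This passed the unadjusted threshold, and the exact permutation test gave p = 0.0571. Without AF1 peptide replicate 1 it was -0.44 (95% interval -0.75 to -0.12), so the mouse that stood apart did not carry this difference. It lay between -0.29 and -0.35, short of the threshold, when control replicate 1, control replicate 4, AF1 peptide replicate 3 or AF1 peptide replicate 4 was left out. The gene lies over Psmc3ip on the opposite strand, and the use of strand in counting is not given in the sources used here. Its depth was also low, 88 to 294 reads per mouse.

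Mlxipl, encoding ChREBP, leaned the other way. It was read at 18616, 17441, 19003 and 14374 normalized counts in the control mice and at 20256, 19253, 22887 and 16493 in the treated mice. Of the treated mice, 3 lay above every control mouse, while replicate 4 lay below 3 of them. The log2 fold change was 0.18 (95% interval -0.14 to 0.51, exact permutation p = 0.229, limma adjusted p = 0.811) and 0.17 without AF1 peptide replicate 1. It was 0.092 with equal library totals, 0.095 without control replicate 4 and 0.11 without AF1 peptide replicate 3. This difference was within the spread between mice.

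LXRα was the only regulator whose groups did not overlap. Nr1h3 had 2446, 2474, 2298 and 2374 normalized counts in control mice and 3316, 2524, 2485 and 2565 in treated mice, so the lowest treated mouse was just above the highest control mouse. Of all genes tested, 2.05% were higher and 1.85% lower in treated mice without overlap, and 1 higher and 0 lower of 10 regulators compare with those shares. The means were 2398 ± 78.7 and 2723 ± 397 (SD, n = 4 per group), and the log2 fold change was 0.17 (95% interval -0.07 to 0.41, limma adjusted p = 0.777). The exact permutation test, in which complete separation always reaches its minimum, gave p = 0.0286. Replicate 1 made most of it. Without that mouse the log2 fold change was 0.07 (95% interval -0.11 to 0.26), and with equal library totals it was 0.082. A predicted gene, Gm13783, lies over Nr1h3 on the same strand. LXRβ, encoded by Nr1h2, had means of 1850 ± 171 and 1988 ± 209, overlapping groups and a log2 fold change of 0.10 (95% interval -0.14 to 0.34, exact permutation p = 0.343), which was 0.042 without AF1 peptide replicate 1 and 0.011 with equal library totals.

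PPARγ and the coactivator PGC-1β, which works with SREBP-1c and the LXRs, differed little. Pparg had 693, 614, 763 and 613 normalized counts in control mice and 628, 698, 674 and 739 in treated mice, and the treated range lay inside the control range. Its log2 fold change was 0.03 (95% interval -0.20 to 0.27, exact permutation p = 0.771) and -0.058 with equal library totals. Ppargc1b stood at 140.2 ± 18.1 and 142 ± 17.6 normalized counts, with a log2 fold change of 0.02 (95% interval -0.31 to 0.34) and of -0.074 with equal library totals. Neither interval reached a change of 0.37 on the log2 scale, the size seen for Mlx.

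**Figure D2:**
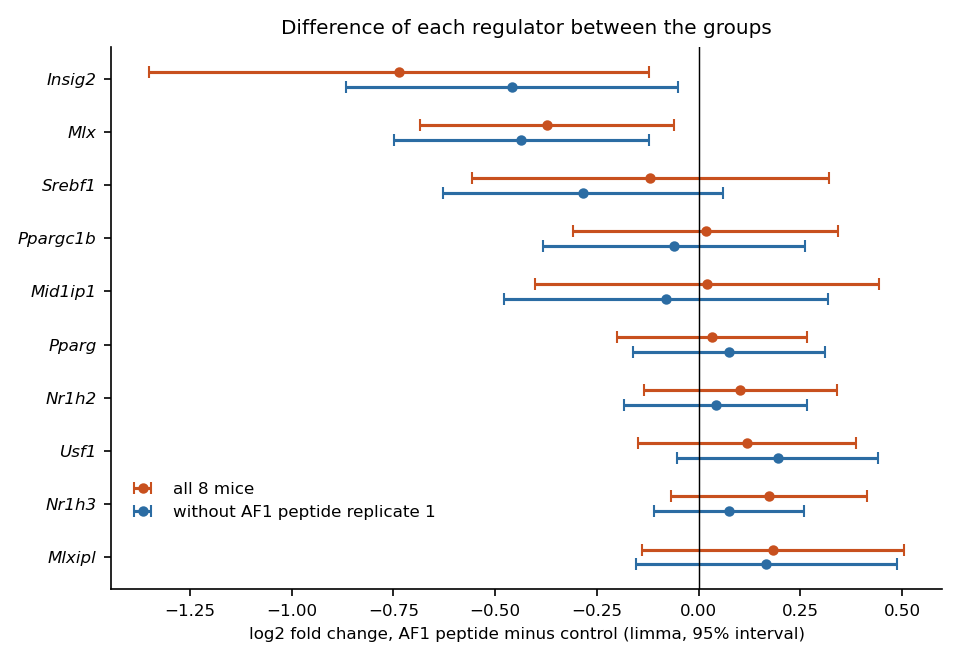
Log2 fold changes of the 10 regulators (horizontal axis, AF1 peptide minus control) with 95% limma intervals, over all 8 mice and without AF1 peptide replicate 1. The intervals of Insig2 and Mlx stay below 0 in both, and those of the other 8 genes cross 0.

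Counted together, 2 of the 10 regulators were called lower in limma, against 3.03% of all genes tested, and 0 were higher, against 3.16%. The median log2 fold change of the 10 was 0.03, and that of all genes was -0.01. Without AF1 peptide replicate 1 the count was again 2 lower and 0 higher. That fit called more genes in all, 876 lower and 732 higher of the 15989 tested. In the exact permutation test the count was 1 of 10, Nr1h3.

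The machinery that carries and cuts SREBPs, with the cofactors that SREBPs use on promoters, moved little. Of 20 genes tested, 0 were higher and 0 lower at the unadjusted limma threshold, and the median log2 fold change was 0.03, or -0.065 with equal library totals. Without AF1 peptide replicate 1, 1 gene was higher and 1 lower. Nfyc, a subunit of the NF-Y factor that binds beside SREBPs, was at 876 ± 45.3 normalized counts in control and 984 ± 21.0 in treated mice (log2 fold change 0.17, limma adjusted p = 0.763) without overlap between the groups. The membrane protease gene Mbtps2 (log2 fold change -0.26) and the acetyltransferase gene Crebbp (0.17) came next in order of p. Insig1, described above, is among the abundant genes of this list.

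Among 10 partners and regulators of ChREBP, 1 was higher and 1 lower, and the median log2 fold change was 0.01. Ppp2ca, the catalytic subunit of a phosphatase known to act on ChREBP, fell from 2171 ± 176 to 1796 ± 256, without overlap between the groups (log2 fold change -0.28, standard error 0.12). With equal library totals, 0 genes of the list were higher and 2 lower. Without AF1 peptide replicate 1, 2 were higher and 1 lower, and Ppp2ca was at -0.33. Foxa2 (log2 fold change 0.26) and Hnf4a (0.03) did not pass, but Foxa2 passed without that mouse (0.32), where Hnf4a was at -0.04.

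The partners of LXR and PPARγ and the corepressors, 17 genes tested, held 0 genes past the threshold in either direction, with a median log2 fold change of 0.12, or 0.03 with equal library totals. The RXR gene Rxrb had a log2 fold change of 0.20, the corepressor gene Ncor1 0.14 and Ppara -0.03, and without AF1 peptide replicate 1 these were 0.12, 0.16 and 0.08. Ppargc1a, the coactivator of fasting gene programs, lay between 110 and 130 normalized counts in control mice and at 324, 205, 94.7 and 129 in treated mice (log2 fold change 0.46, limma adjusted p = 0.786), and its log2 fold change was 0.15 without AF1 peptide replicate 1. The bile acid receptor gene Nr1h4 had a log2 fold change of 0.18, and of 0.30, past the unadjusted threshold, without AF1 peptide replicate 1.

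The target genes of the regulators lay mostly on the lower side, and the size of this rested largely on AF1 peptide replicate 1. Of all 15989 genes tested, 8285 had a negative log2 fold change, and 3.03% were called lower and 3.16% higher. Without replicate 1, 876 of them were called lower and 732 higher. Of 20 SREBP-1c targets, 18 had a negative and 2 a positive log2 fold change, 4 were lower (Fasn, Elovl5, Fads1 and Gpam) and 0 higher, and the median was -0.25. The median was -0.15 without replicate 1, with 3 genes lower, and -0.34 with equal library totals, with 6 lower. Fasn, fatty acid synthase, fell from 42145 ± 2161 to 31140 ± 7151 normalized counts (log2 fold change -0.47, standard error 0.19, limma adjusted p = 0.763), with no overlap, and replicate 1 was the lowest at 20625. Without replicate 1 its log2 fold change was -0.28, still past the unadjusted threshold. The elongase gene Elovl5 (log2 fold change -0.73, standard error 0.31) and the desaturase gene Fads1 (-0.25, standard error 0.11) were also lower. Without replicate 1, Elovl5 kept its call at -0.37, and Fads1 lost it at -0.24. Gpam, the first enzyme of triglyceride synthesis, was lower as well (-0.57, standard error 0.26), and is named because it passed the threshold. It was at -0.26, still called, without replicate 1, in which it had 5009 normalized counts against 10856 to 12144 in the other treated mice. Scd1, the stearoyl-CoA desaturase, was at 183948 normalized counts in replicate 1 and at 470852 to 503418 in the other treated mice (log2 fold change -0.43, limma adjusted p = 0.849), and its log2 fold change was -0.08 without replicate 1. Summed over the list, the normalized counts were 578886 to 896207 in control mice, 311845 in replicate 1 and 666364 to 719501 in the other treated mice.

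The 20 ChREBP targets share Fasn and other genes with that list, so the 2 lists are not separate evidence. They had 17 negative and 3 positive log2 fold changes with a median of -0.25, which was -0.08 without replicate 1, with 3 genes lower. The 2 genes lower were Fasn and Slc2a2, the glucose transporter of hepatocytes (log2 fold change -0.25, standard error 0.11). The arrestin-like gene Arrdc4 (-0.22) did not pass. Without replicate 1, Slc2a2 lost its call (-0.23), and the 3 genes lower were Fasn, Arrdc4 (-0.28) and the glucose-6-phosphatase gene G6pc (-0.63, against -0.29 over all mice), which is named because it passed there. The summed normalized counts were 530661 to 707598 in control mice, 334666 in replicate 1 and 561687 to 611042 in the other treated mice.

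Of 16 LXR targets, 1 was lower and 0 higher, with a median of -0.10, or -0.03 without replicate 1. The gene called lower was Smpdl3a (log2 fold change -0.48, standard error 0.18, limma adjusted p = 0.763), and it kept the call without replicate 1 (-0.41). Cyp7a1, the rate-limiting enzyme of bile acid synthesis (log2 fold change 0.61), Scd2 (-0.78) and the apolipoprotein gene Apoe (0.03) did not pass, and were at 0.36, -0.69 and -0.04 without replicate 1. The list summed to 1735580 in replicate 1, 1503220 to 2143900 in control mice and 1697660 to 1893410 in the other treated mice. Of 15 PPARγ targets tested, 14 had a negative log2 fold change with a median of -0.45, but 0 passed the threshold in either direction. The median was -0.06 without replicate 1, again with 0 past the threshold, and -0.54 with equal library totals, with 3 lower. Cd36, a fatty acid uptake gene (log2 fold change -0.33), Fabp4 (-0.37), the lipid droplet gene Plin2 (-0.46) and the acyl-CoA synthetase gene Acsl1 (0.05) lay at limma adjusted p values of 0.763 to 0.949. Without replicate 1 their log2 fold changes were -0.29, -0.22, -0.18 and 0.02. The sum of this list was 32760 in replicate 1, against 54140 to 65821 in control mice and 54894 to 59069 in the other treated mice.

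**Figure D3:**
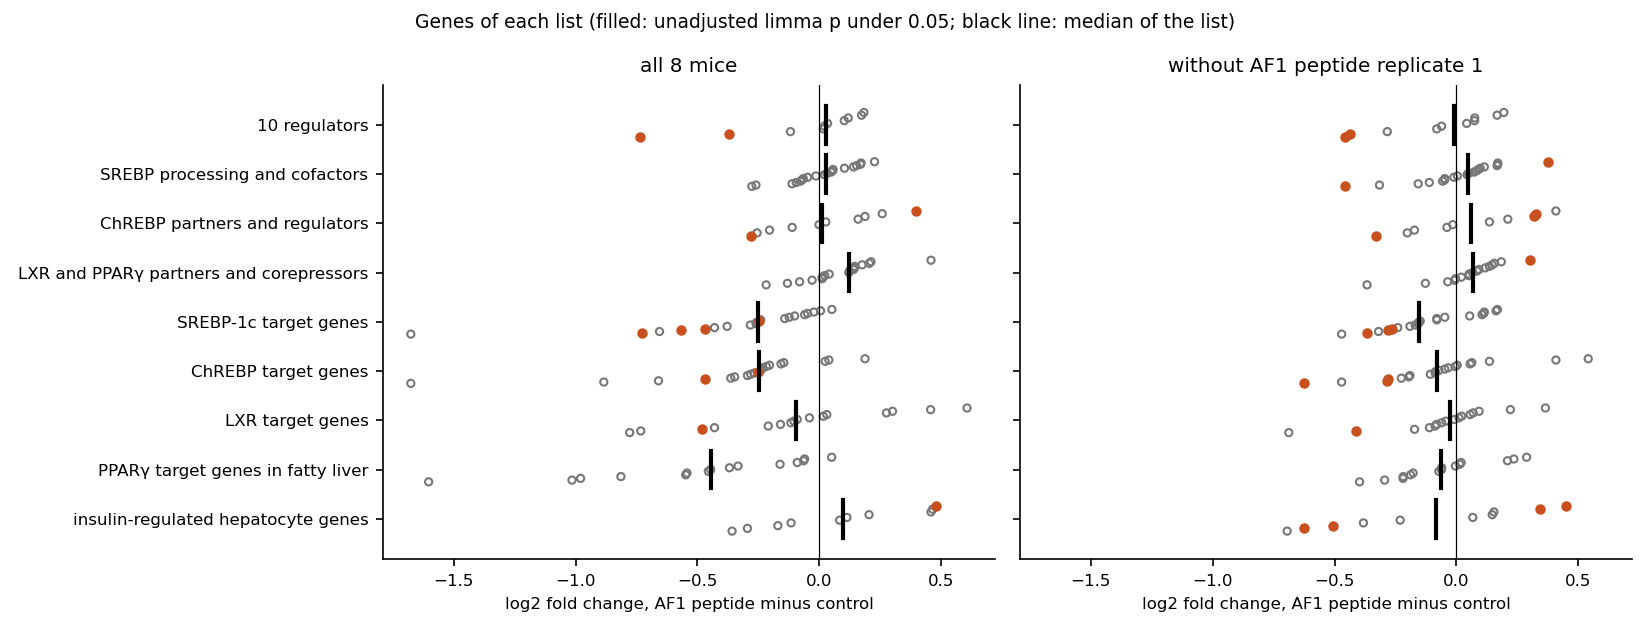
Log2 fold changes (horizontal axis, AF1 peptide minus control) of the genes of each list, over all 8 mice and without AF1 peptide replicate 1. Each point is a gene, filled points have an unadjusted limma p under 0.05, and black lines are list medians; the median of the PPARγ targets moves from -0.45 to -0.06 between the panels.

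Srebf1 and Nr1h3 were highest in AF1 peptide replicate 1, the mouse whose target lists had the lowest mean log2 levels. For the LXR targets this mean was 11.24 there, 11.38 to 11.53 in control mice and 11.33 to 11.46 in the other treated mice. The LXR targets were split, since of those named above Cyp7a1 and Apoe were highest in that mouse and Smpdl3a, Scd1 and Scd2 lowest. Others of the list lay far above all other mice there. Abcg5 was at 12327 normalized counts against 3312 to 4921, Abcg8 at 5177 against 1619 to 2313, and Abca1 at 1553 against 766 to 1205. Abcg1 and Mylip were lowest in that mouse. The mean of this list thus hides genes that moved in opposite directions. The mean log2 level of the SREBP-1c targets was 12.92 to 13.13 in control mice and 12.79 to 13.02 in treated replicates 2 to 4, but 12.04 in treated replicate 1. Over all 8 mice, Srebf1 and this mean had a Pearson r of -0.34 (two-sided exact permutation p = 0.494, adjusted over 4 pairs 0.607) and a Spearman rho of 0.24 (exact permutation p = 0.582). Taken as deviations from the group means, the 8 mice gave r = -0.52 (exact permutation p = 0.184) and rho = -0.21. Leaving out the 2 mice farthest from the median of Srebf1, control replicate 2 and AF1 peptide replicate 1, gave r = 0.84 (n = 6, exact permutation p = 0.0139). Leaving out AF1 peptide replicate 1 alone gave r = 0.81 and rho = 0.86 (n = 7, exact permutation p = 0.024). Among these 7 mice the targets were higher where Srebf1 was higher, so the sign of r over all 8 rested on 1 mouse. Since that mouse was set aside after its values were seen, the value over 7 mice is a description. It also pools both groups, so a difference between the groups can enter it.

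**Figure D4:**
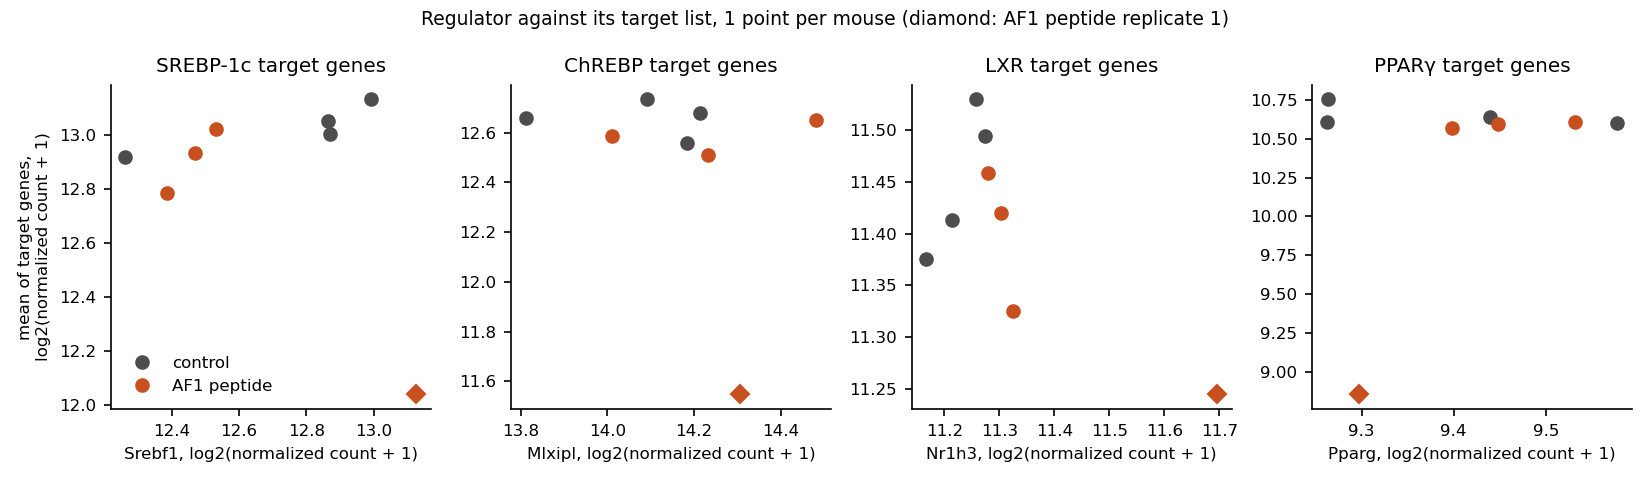
Mean log2(normalized count + 1) of each target list (vertical axes) against the regulator (horizontal axes), 1 point per mouse, for Srebf1, Mlxipl, Nr1h3 and Pparg. The diamond, AF1 peptide replicate 1, lies lowest in every panel; without it the points of Srebf1 rise together (r = 0.81).

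The other 3 pairs gave no relation past the threshold. Mlxipl and the ChREBP targets had r = -0.30 (exact permutation p = 0.371, adjusted 0.607) and rho = -0.43 (p = 0.299, exact permutation), and r = -0.64 (n = 6, exact permutation p = 0.211) without control replicate 4 and AF1 peptide replicate 3, the 2 mice farthest from the median. Nr1h3 and the LXR targets had r = -0.68 (exact permutation p = 0.0699, adjusted 0.28) and rho = -0.40 (p = 0.327, exact permutation), and r was -0.46 (exact permutation p = 0.347) without AF1 peptide replicate 1 and control replicate 3 and -0.01 without AF1 peptide replicate 1 alone. Pparg and the PPARγ targets had r = 0.31 (exact permutation p = 0.607, adjusted 0.607) and rho = -0.21 (p = 0.619, exact permutation), and r = 0.42 without control replicates 3 and 4. Regulators and targets come from the same libraries and share their scaling, and messenger RNA says nothing of the cutting of SREBP-1c or of the ligands of the receptors.

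The genes most like each factor over the 8 mice were searched among 12442 genes with a mean of at least 50 normalized counts, and are given as a description. For Srebf1 they were Zfpm1 (Pearson r = 0.967), Sfmbt1 (0.954), Slc25a33 (0.947), Ccdc142 (0.941) and Aox3 (0.940), and the first 3 of these kept r of 0.956, 0.933 and 0.973 without AF1 peptide replicate 1. For Mlxipl they were Zfp688 (r = 0.971), Cpsf4 (0.955), Rnf43 (0.952), Ranbp3 (0.949) and Pcnx3 (0.946). For Pparg they were Hnf1aos1 (r = 0.933), AU041133 (0.925), Bloc1s1 (0.923), Prdm10 (0.923) and Cog2 (0.922).

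Hepatocyte genes regulated by insulin, 10 in all, lie upstream or beside these factors, and 1 was higher and 0 lower, with a median log2 fold change of 0.10. Foxo1, a factor that insulin keeps out of the nucleus, was at 505 ± 16.4 normalized counts in control and 714 ± 147 in treated mice, without overlap (log2 fold change 0.48, standard error 0.13, limma adjusted p = 0.763), and its log2 fold change was 0.34 without replicate 1. With equal library totals 0 genes of this list were higher. The pseudokinase gene Trib3 (log2 fold change -0.36) and the gluconeogenic gene Pck1 (0.08) did not pass, and were at -0.38 and -0.23 without replicate 1. Without replicate 1, 2 genes of this list were higher and 2 lower, and the median was -0.08.

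Markers of the cells in the samples were read beside these results, and their part in them was not tested. The 10 hepatocyte markers had 0 genes past the threshold (median log2 fold change -0.05), and without treated replicate 1 the median was -0.12 with 1 lower, Tat (-0.74). Their summed normalized counts were 2520680 to 2700020 in control mice, 1881020 in treated replicate 1 and 2195700 to 2651380 in the other treated mice. Of 10 Kupffer cell and macrophage markers 1 was lower (Adgre1, log2 fold change -0.66, standard error 0.27), and 0 were without treated replicate 1, where Adgre1 was at -0.45. Their sum was 2829 in replicate 1, against 6203 to 7755 in control mice and 6736 to 7452 in the other treated mice, and their median moved from -0.26 to 0.05 without that mouse. Endothelial cell markers (8 genes) had 0 calls and a median of -0.10 (-0.04 without replicate 1), with sums of 5532 to 6231 in control, 4845 in replicate 1 and 5253 to 6234 in the other treated mice. Stellate cell markers (8 genes) had 1 lower, Dcn (log2 fold change -0.42, standard error 0.18), a median of 0.03, and sums of 4917 to 6243, 4114 and 4163 to 6807 in the same order. Without replicate 1 Dcn kept its call (-0.43), Hand2 (0.39) was called higher, and the median was 0.16. Bile duct cell markers (5 of 6 tested) had 0 calls, a median of 0.05 (0.28 without replicate 1, again with 0 calls) and sums of 1193 to 1799, 803 and 1246 to 2291, and Cftr was at 4.94 normalized counts or less. Lymphocyte markers (5 of 6 tested) had 0 calls, a median of -0.18 (-0.02 without replicate 1) and sums of 91.6 to 129, 72.8 and 68.0 to 157. Red blood cell markers (5 of 6 tested) had 0 calls, a median of -0.23 (-0.18 without replicate 1) and sums of 34147 to 123375, 27111 and 49135 to 51923. Of 8 adipocyte markers 4 were tested, and 1 was higher, Lipe (log2 fold change 0.43, standard error 0.13), which was at 0.50 without replicate 1. The median of the 4 was 0.14 (-0.02 without replicate 1), and their sums, nearly all Car3, were 21392 to 48575, 26849 and 24533 to 49851. The defining marker Retn reached at most 17.3 normalized counts, and Adipoq, Lep and Plin1 were not among the 21532 genes with values. The male marker genes (4 tested) were expressed in every mouse with 0 calls, and Xist reached at most 6.53 normalized counts.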

How the data were processed

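RNA of frozen livers was isolated with TRIzol, and 1 stranded mRNA library was prepared per mouse. Per the labels and the study's methods, the authors trimmed reads with Trim Galore 0.6.7, aligned them with HISAT2 to mm39, used SAMtools 1.17 for sorting and GenomicAlignments for counting reads per gene. The annotation, the use of strand and the treatment of reads matching several genes are not given in the sources used here. The deposited signal was a table of normalized counts per gene and mouse. Multiplying by 1 factor per library returned whole reads (100% of 172256 values, tolerance 0.01). Replicates were not pooled, and no library duplicated another (chi-square of 14.6 to 311.7 per degree of freedom within groups).

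Groups came from the labels. Genes averaging 10 or more normalized counts were tested on log2(normalized count + 1) with limma 3.58.1 in R 4.3.3, with a variance trend, over 15989 genes. This scale understates changes of low genes. The threshold was an unadjusted p of 0.05, as in the study. The members and gene lists were chosen with earlier results of these data known. Named were the 10 regulators, the 3 genes with the smallest p and the 2 with the highest mean of each list, lists with fewer than 5 tested genes in full, and the 5 genes most correlated with Srebf1, Mlxipl and Pparg. Others named passed the threshold, with or without AF1 peptide replicate 1, or were LXR targets at an extreme in that mouse. They were chosen after their values were seen. In the comparisons, marker genes are named where called or as defining or dominant genes of their list, and other marker genes only for an extreme mouse. A few genes that the rule names are not reported here. Alternatives were pseudocounts, filters, TMM factors, equal totals, no trend, each gene's own variance, the replicate block, edgeR 4.0.16, DESeq2 1.42.0 and each mouse left out. The lists without AF1 peptide replicate 1 and with equal totals, and the exact permutation test of each regulator, were added after seeing the data. The fit was tested on simulated data.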

Additional observations from a re-analysis of the deposited data

Results flagged for a closer look

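In each group of 4 mice, the gap between an extreme mouse and its nearest neighbour was divided by the range of the group, and a ratio above Dixon's critical value was taken as an extreme mouse. Of 170 groups checked, 19 passed, where chance gives about 1 in 20 (8.5), and in 11 of them the mouse was AF1 peptide replicate 1.

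Among the regulators, AF1 peptide replicate 1 was the extreme mouse for Srebf1 (8938 normalized counts against 5354 to 5926 in the other treated mice, ratio 0.84) and for Nr1h3 (3316 against 2485 to 2565, ratio 0.904), the highest in both. The same mouse was lowest for the mean log2 level of the ChREBP targets (11.5 against 12.5 to 12.7, ratio 0.873), for that of the PPARγ targets (8.86 against 10.6, ratio 0.98) and for Scd1 (ratio 0.898), and highest for Foxo1 (932 normalized counts against 608 to 660, ratio 0.84).

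Among cell markers this mouse was lowest for Ttr (ratio 0.875), Cd5l (526 against 1543 to 1707, ratio 0.861), Clec4f (1091 against 2509 to 2645, ratio 0.913), Hba-a1 (0.867) and Hba-a2 (0.853). AF1 peptide replicate 3 was lowest for Ppp2ca (1417 against 1894 to 1977, ratio 0.851) and Uty (0.861). In control mice, replicate 1 was highest for Apoe (0.85) and Colec11 (0.895) and lowest for Lyve1 (142 against 195 to 196, ratio 0.988), and replicate 4 was highest for Hbb-bt (0.831), Hba-a1 (0.908) and Hba-a2 (0.91).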

How the results depend on the processing

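Over 12 other settings with all mice, Mlx kept an unadjusted p under 0.05 in 11 (log2 fold change -0.46 to -0.36 over the 12) and Insig2 in 10 (-0.83 to -0.67). In the exact permutation test, Mlx (-0.37, p = 0.0571) and Insig2 (-0.74, p = 0.0857) did not pass, Nr1h3 (0.17, p = 0.0286) passed, and the count was 1. With each gene's own variance Insig2 (-0.74) did not pass either, and the count of regulators past the threshold was 1. Leaving out 1 mouse at a time gave log2 fold changes of -0.46 to -0.29 for Mlx, past the threshold in 4 of 8, and of -0.93 to -0.46 for Insig2, past it in 6 of 8, and a count of 0 to 2 regulators. The count was 0 without control replicate 1. Small differences changed sign with equal library totals, to -0.074 for Ppargc1b, -0.071 for Mid1ip1 and -0.058 for Pparg, and Mid1ip1 was at -0.014 in edgeR and -0.0085 in DESeq2. Leaving out 1 mouse gave -0.063 to 0.089 for Ppargc1b, -0.14 to 0.16 for Mid1ip1 and -0.0077 to 0.098 for Pparg. Srebf1, Mlxipl, Nr1h2 and Usf1 kept their direction and passed the threshold in none of these, and Nr1h3 only in the exact test. Over all genes, equal totals gave 129 higher and 769 lower, and leaving out 1 mouse gave 285 to 732 higher and 255 to 876 lower, lowest without control replicate 2 and highest without AF1 peptide replicate 1. The correlation of Srebf1 with its targets was 0.84 without 2 mice and -0.52 as deviations from the group means. With each mouse left out it was -0.53 to 0.81. That of Nr1h3 was then -0.80 to -0.013, past the threshold in 1 of 8, and that of Pparg -0.52 to 0.48. The causes were not tested.

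The groups share replicate numbers. Deviations of same-numbered mice correlated at 0.235, 0.0238, 0.217 and -0.064, and 4 of 8 mice correlated best with their own number. The mean correlation was 0.103 for same-numbered and -0.0342 for different-numbered mice. So few correlations cannot decide whether the numbers pair the mice, and the main fit took them as unpaired. With the replicate block, 597 genes were higher and 647 lower, with Insig2 and Mlx again the 2 regulators past the threshold. Depth bears most on Ppargc1b and Mlx, the regulators with the fewest reads.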

Other observations

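For pairs of proteins that act together, and for LXRα and LXRβ, the ratio of their normalized counts was taken within each mouse. The 3 ratios were set side by side with a two-sided exact permutation test on the log scale, whose smallest p with 4 mice against 4 is 0.0286. The ratio of Insig2 to Scap, retainer over carrier, was 2.26 ± 0.491 in control and 1.34 ± 0.681 in treated mice (SD, n = 4 per group, exact permutation p = 0.0857, adjusted over 3 ratios 0.129), and was lowest, 0.580, in AF1 peptide replicate 1. The ratio of Mlx to Mlxipl was 0.0121 ± 0.00258 and 0.00818 ± 0.00125 (exact permutation p = 0.0571, adjusted 0.129), with 3 treated mice below every control mouse. The ratio of Nr1h3 to Nr1h2 was 1.31 ± 0.148 and 1.37 ± 0.122 (exact permutation p = 0.571, adjusted 0.571). None of the ratios passed the threshold.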
